A study of Mus musculus with 2 samples.

Results

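The interferon-induced transmembrane (IFITM) genes described here are Ifitm1, Ifitm2, Ifitm3 and Ifitm6, 4 genes of the 34400 gene identifiers found in either table. They were taken by symbol from both tables, and all 4 were present in each. The data were single-cell RNA counts of dissociated CT26 tumours, CT26 being an established mouse colon carcinoma line, with 1 library per treatment. Control mice were given anti-IgG and treated mice SLC7A11-Ab, an antibody against the cystine importer SLC7A11. Dosing was 10 mg/kg at intervals of 2 days and began once tumours measured 50 to 100 mm³. Both groups carried CT26 tumours, and the strain and age of the mice and the number of mice per library are not given in the sources used here. The members were selected on earlier values of these data, among them the low antibody over control ratio of Ifitm2 in CD8 T cells.

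IFITM proteins are small membrane proteins of the cell surface and of endosomes that hinder the fusion of enveloped viruses with the cell. Ifitm3 acts mainly in endosomes and Ifitm1 mainly at the cell surface, and both are classical targets of type I and type II interferon. Ifitm6 is known from myeloid cells of mice. Lymphocytes, tumour cells and myeloid cells are described side by side.

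The genes lie together on mouse chromosome 7 within 63.1 kb, from 140954837 to 141017924 in build GRCm38 by GENCODE annotation. Ifitm2 spans chr7:140954837-140955987 on the minus strand, Ifitm1 chr7:140967221-140969825 on the plus strand, Ifitm3 chr7:141009586-141010770 on the minus strand and Ifitm6 chr7:141015699-141017924 on the minus strand. The stretch from 100 bases before to 30 bases after each gene's RefSeq start (GRCm38.p6) is shown, 5′ to 3′ on the gene's own strand, because the 4 neighbouring genes differed from each other in the cells where they were found. Capitals mark the letters GAAA, any 2 bases and GAAA again, the core of the interferon-stimulated response element. Ifitm1 is chr7:140967976-140968105, Ifitm2 chr7:140955932-140956061, Ifitm3 chr7:141010715-141010844 and Ifitm6 chr7:141016863-141016992.
Ifitm1: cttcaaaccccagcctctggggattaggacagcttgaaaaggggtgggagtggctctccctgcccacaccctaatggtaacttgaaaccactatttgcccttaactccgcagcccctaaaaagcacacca
Ifitm2: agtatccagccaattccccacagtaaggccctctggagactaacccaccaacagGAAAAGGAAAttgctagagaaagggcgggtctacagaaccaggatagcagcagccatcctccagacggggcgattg
Ifitm3: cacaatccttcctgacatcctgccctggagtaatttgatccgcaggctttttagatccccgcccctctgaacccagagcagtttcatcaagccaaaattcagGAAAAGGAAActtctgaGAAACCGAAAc
Ifitm6: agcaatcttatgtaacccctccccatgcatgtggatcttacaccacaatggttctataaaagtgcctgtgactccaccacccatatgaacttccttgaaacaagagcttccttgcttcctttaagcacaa

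Searched on both strands, the letters GAAA, any 2 bases and GAAA occurred once in the Ifitm2 window of 300 bases, at -46 to -37 from the start. They occurred at 3 to 12 and again at 20 to 29 in the Ifitm3 window. They were not found in the windows of Ifitm1 (chr7:140967826-140968125) and Ifitm6 (chr7:141016843-141017142). Those 2 windows, placed on the RefSeq start, do not reach the GENCODE 5′ ends of the genes, at 140967221 and 141017924. Sequence around those 5′ ends was not searched. Of 32851 promoter windows of this length 3.44% held the letters, against 14 of the 26 matched genes of the type I interferon list used below. The core of the gamma-activated site, TTCNNNGAA, was found in the windows of Ifitm3 and Ifitm6, and in 8.3% of all windows. In Ifitm3 it overlapped the second response element core by 3 bases. A match describes the letters of the window and not a bound site.

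Levels are given in CPM, a gene's UMI counts per 1000000 UMIs of the same cells, UMIs being counts of captured molecules. Cells were sorted into classes by the UMIs of marker genes, and each class is called a gate because its name rests on those markers alone. Of 12326 control and 10897 antibody cells, the CD8 T gate held 86 and 465, the macrophage gate 730 and 753, the monocyte gate 54 and 245 and the neutrophil gate 97 and 115. The tumour gate required a keratin or epithelial-junction UMI, no Ptprc UMI and no host class whose marker minimums were passed. Host-marker UMIs short of those minimums could remain, as with Lyz2 at 40.9 and 78.7 CPM. The tumour gate held 2458 and 1407 cells. Its name rests on Krt18, the one such marker seen in at least 10% of its cells, and its Y-linked transcripts of 4 genes stood at 0.687 and 1.90 CPM, against 121 to 351 in the 8 host gates with at least 20 cells per library. Both libraries are labelled as goblet cells, yet 7 goblet markers together made up 1.85 and 1.05 CPM. The libraries held 129044329 and 143658800 UMIs, shared 39 cell barcodes, of which 1 was in a CD8 T gate, and median depth in the CD8 T gate was 1832 UMIs per control cell and 3048 per antibody cell. Since each treatment has 1 library, the differences carry no replicate error, and the 95% intervals cover counting error only.

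In CD8 T-gated cells Ifitm2 stood at 798 CPM in the control library (676 to 935) and at 116 in the antibody library (99.7 to 133). The antibody over control ratio was -2.79 on the log2 scale (-3.10 to -2.47), a level 6.91-fold higher in the control. Without the minimum density of T cell markers in the gate, a setting tried after seeing the data, the ratio was -2.06. Ifitm3, the endosomal family member, stood at 620 and 305 CPM, a log2 ratio of -1.03 (-1.31 to -0.72). Ifitm1, the cell-surface member, stood at 331 and 129, a log2 ratio of -1.37 (-1.78 to -0.93). Ifitm6 had 0 UMIs in both libraries, which allows up to 15.8 CPM in the control library and 1.85 in the antibody library at 3 counts. Since the members were chosen by such ratios, the values are descriptions.

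The Ifitm1 difference rested largely on single cells. A single control cell held 37 of the 63 Ifitm1 UMIs of the CD8 T gate, and a single antibody cell 43 of 209. Without those cells the log2 ratio was -0.47, and 12.8% of control and 11.8% of antibody cells had an Ifitm1 UMI. The Ifitm2 difference did not have that form, since the highest control cell held 16 of 152 UMIs and the highest antibody cell 15 of 188.

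Transcripts of tumour and stromal cells were found in the lymphocyte gates, and 5 of them served as a gauge: Krt8 and Krt18, which are keratins, and Col3a1, Col1a1 and Sparc, which belong to the matrix. The gauge is not one of tumour RNA alone, since its summed level in the fibroblast gate stood at 4720% of the tumour-gate level in the control library and 9189% in the antibody library. In the CD8 T gate the sum stood at 8.83% and 15.1% of the tumour-gate level. The single genes spread widely there, from 0% (Krt8) to 13.0% (Col1a1) in the control library and from 0.659% (Krt18) to 52.3% (Col1a1) in the antibody library. Ifitm3 in the CD8 T gate stood at 35.2% of its tumour-gate level in the control library, above all 5 gauge genes, and at 14.7% in the antibody library, above Krt8, Krt18 and Sparc and below both collagens. In the antibody library 250 of its 496 UMIs were in 52 of the 465 cells. Ifitm2 stood at 143% and 30% of its tumour-gate level, the antibody value lying between the gauge genes. Ifitm1 stood at 110% and 65.8%, above all 5 in both libraries, but with 37 of its 63 control UMIs in 1 cell. The part of RNA from other cells in these levels was not tested.

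Counts per cell showed where the Ifitm2 molecules were. At least 3 Ifitm2 UMIs were found in 15 of 86 control cells (17.4%, 10.1 to 27.1) and in 20 of 465 antibody cells (4.30%, 2.65 to 6.56). Those 15 control cells held 130 of the 152 UMIs, and the 20 antibody cells 108 of the 188. Any Ifitm2 UMI was found in 38.4% of control cells (28.1 to 49.5) and 19.6% of antibody cells (16.1 to 23.5), while the antibody cells held more UMIs each (median 1832 and 3048). With every cell thinned to 1000 UMIs the shares were 30.8% and 7.0%, with 8 shallower cells left out in each library. For Ifitm3 the shares were 48.8% and 52.9% at full depth and 32.1% and 23.9% thinned. The intervals of the libraries overlapped both at full depth and thinned, so these shares do not settle the order of the libraries. For Ifitm1 the shares were 7.69% and 5.69% thinned.

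**Figure D1:**
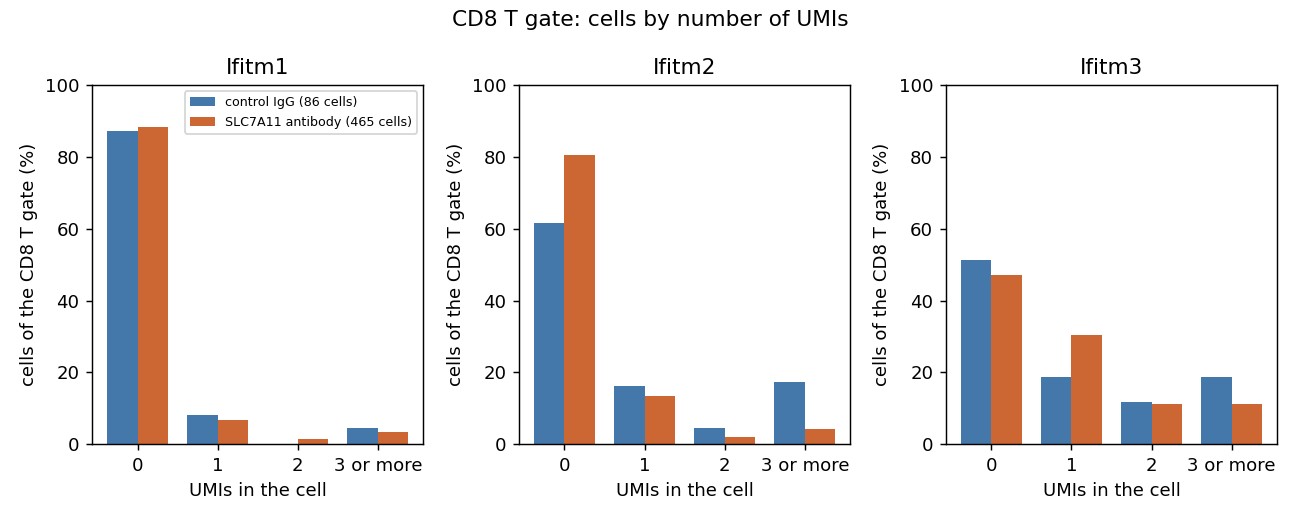
Share of CD8 T-gated cells (y axis, percent) by the number of UMIs of Ifitm1, Ifitm2 and Ifitm3 in the cell (x axis), for 86 control and 465 antibody cells. For Ifitm2 the class with 3 or more UMIs holds 17.4% of control and 4.30% of antibody cells, while the Ifitm1 bars of the libraries lie close together.

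The CD8 T cells with at least 3 Ifitm2 UMIs also held more transcripts of Gzmf and Gzmb, granzymes of the cytotoxic granules. Gzmf stood at 5599 CPM in the 15 high control cells and 470 in the other 71, and at 2473 in the 20 high antibody cells and 127 in the other 445, with its UMIs in 7 of the 15 and 8 of the 20 high cells. Gzmb, the main effector granzyme, stood at 5121 against 1276 in the control and 7660 against 3113 in the antibody library. Gzmk stood at 279 against 57.0 in the control and, the other way, at 63.1 against 98.0 in the antibody library. Ifitm1 stood at 1136 against 42.8 and at 558 against 102, although 1 control cell held 37 of the Ifitm1 UMIs. The T cell genes Cd3e and Cd8a differed little, with Cd8a at 1235 against 1169 CPM in the control. Median depth was also higher in the high cells, at 3355 against 1704 UMIs in the control and 4650 against 2970 in the antibody library, and its part in these differences was not tested.

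Of the 11 control cells with an Ifitm1 UMI, 10 also had an Ifitm2 UMI. In the antibody library 21 of 55 did. Isg15, a ubiquitin-like type I interferon target, stood at 379 CPM in the Ifitm2-high control cells and 456 in the others, and at 137 and 238 in the antibody library.

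Gzmf-positive cells were split off to describe the library difference on each side. Among CD8 T cells without a Gzmf UMI, Ifitm2 stood at 512 CPM in 78 control cells (407 to 637) and 89.1 in 427 antibody cells (74.4 to 106). Among those with a Gzmf UMI it stood at 2192 in 8 control cells and 330 in 38 antibody cells. The control was thus higher on both sides of the split, and the intervals did not overlap. Ifitm1 stood at 285 against 62.2 CPM without Gzmf, where a single cell held 37 of the 45 control UMIs, and at 556 against 665 with it. Whether the ratio differs between the sides was not tested.

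Cycling cells, taken as those with a UMI of Mki67 or Top2a, gave the same order for Ifitm2. It stood at 955 CPM in 38 cycling control cells and 111 in 188 cycling antibody cells, and at 569 in 48 non-cycling control cells and 121 in 277 non-cycling antibody cells. Ifitm3 stood at 619 against 280 in cycling and at 621 against 336 in non-cycling cells.

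**Figure D2:**
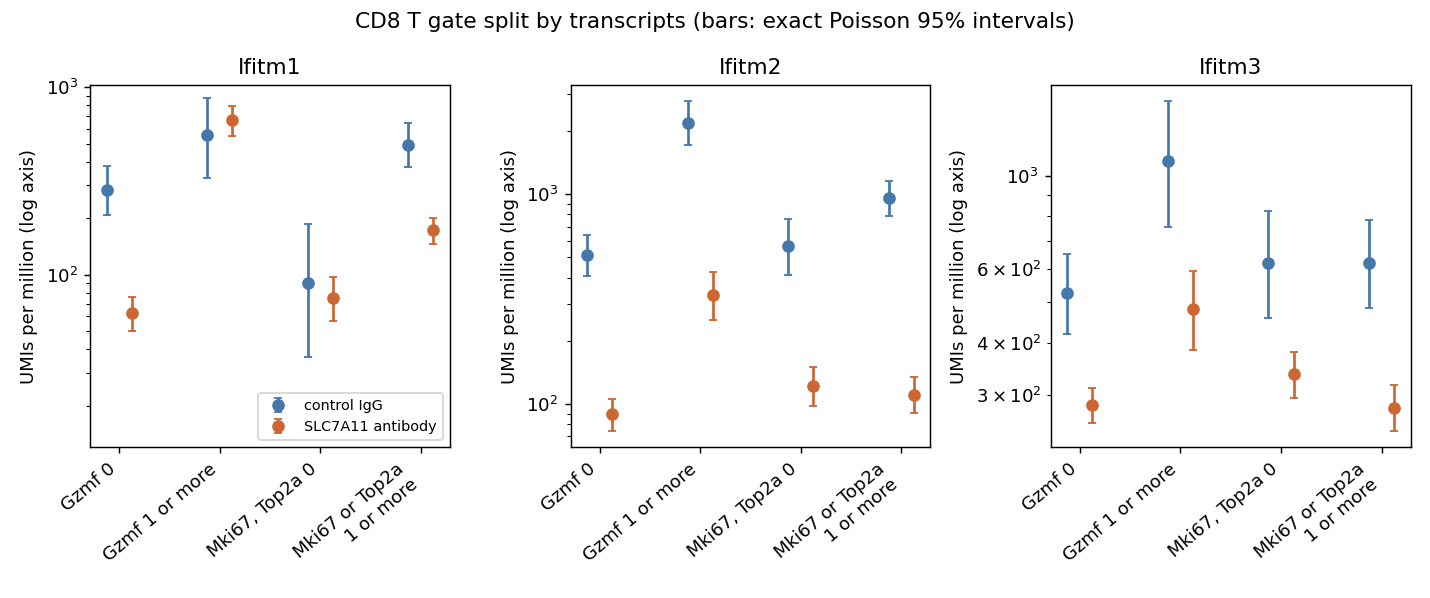
Level of Ifitm1, Ifitm2 and Ifitm3 (CPM, log axis) in CD8 T-gated cells split by Gzmf and by Mki67 and Top2a UMIs, with exact Poisson 95% intervals. The control point of Ifitm2 lies above the antibody point in all 4 groups of cells, from 512 against 89.1 to 2192 against 330.

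In the control library the NK and CD4 T gates lay below the CD8 T gate for Ifitm1, Ifitm2 and Ifitm3. In the antibody library both lay above it for Ifitm2, and the CD4 T gate also for Ifitm3. In NK-gated cells Ifitm2 stood at 480 CPM in 50 control cells and 221 in 131 antibody cells, a log2 ratio of -1.12 (-1.70 to -0.55). A single control cell held 27 of its 56 UMIs and a single antibody cell 21 of 50. Ifitm3 in NK cells stood at 378 and 269 CPM, and the antibody value was 13% of the tumour-gate level, where the single gauge genes ran from 0% (Krt8) to 105% (Col1a1). In CD4 T-gated cells Ifitm3 had 2 UMIs in 22 control cells and 75 in 74 antibody cells, a log2 ratio of 2.29 (0.70 to 5.67). The antibody value was 22.8% of the tumour-gate level, where the single gauge genes ran from 0% (Krt8) to 52.9% (Col3a1), and the part of RNA from other cells was not tested. Ifitm6 had 0 UMIs in the CD4 T and NK gates of both libraries. At 3 counts this allows up to 117 CPM (control) and 18.9 (antibody) in the CD4 T gate, and 25.7 and 13.2 in the NK gate.

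In tumour-gated cells the members did not move together. Ifitm3 stood at 1759 CPM in the control library and 2078 in the antibody library, a log2 ratio of 0.24 (0.22 to 0.26). Ifitm1 stood at 302 and 195, a log2 ratio of -0.63 (-0.67 to -0.58), and Ifitm2 at 559 and 386, a log2 ratio of -0.53 (-0.57 to -0.50). Ifitm3 was found in 99.1% of tumour-gated cells of either library and Ifitm1 in 78.1% and 74.5%. Ifitm6 had 26 UMIs in the control library and 12 in the antibody library over all tumour-gated cells, at most 0.812 CPM. Without a keratin minimum in the gate the ratios were 0.39 for Ifitm3, -0.38 for Ifitm1, -0.35 for Ifitm2 and 0.04 for Ifitm6.

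In macrophage-gated cells all 4 members stood lower in the antibody library. Ifitm3 stood at 3485 and 2483 CPM, a log2 ratio of -0.49 (-0.53 to -0.45), and Ifitm2 at 2291 and 1097, a log2 ratio of -1.06 (-1.11 to -1.01). Ifitm1 stood at 302 and 76.7, a log2 ratio of -1.98 (-2.15 to -1.81), which was -1.04 without the marker density minimum. Ifitm6 had 100 and 76 UMIs, or 32.5 and 14.6 CPM, a log2 ratio of -1.16 (-1.61 to -0.71). Ifitm2 was nearly ubiquitous, in 98.8% and 95.8% of the cells, while Ifitm1 was found in 28.9% and 17.8%. At least 3 Ifitm1 UMIs were found in 105 of 730 control cells and 30 of 753 antibody cells.

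Cxcl9, a chemokine induced by interferon gamma, was used to divide the macrophage gate, since Cxcl9-positive cells made up 8.77% of it in the control library and 74.5% in the antibody library. Among Cxcl9-negative macrophages Ifitm2 stood at 2318 against 1256 CPM, and among Cxcl9-positive ones at 2067 against 1061. Ifitm1 stood at 291 against 54.2 in Cxcl9-negative and at 389 against 81.9 in Cxcl9-positive cells. Both members were thus lower in the antibody library on each side, and Cxcl9-positive cells had more Ifitm1 than Cxcl9-negative cells in both libraries. Ifitm3 was higher in Cxcl9-positive cells in the control, at 3911 against 3433, and lower in them in the antibody library, at 2401 against 2841. Among Cxcl9-negative macrophages Ifitm6 stood at 33.2 CPM in the control (26.8 to 40.8) and 37.9 in the antibody library (26.7 to 52.2). It was thus not lower in the antibody library there. Among Cxcl9-positive ones it stood at 26.7 on 9 control UMIs (12.2 to 50.7) and 9.20 on 39 antibody UMIs (6.54 to 12.6).

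Monocyte-gated cells, which carry monocyte markers and few C1q transcripts, had the highest Ifitm3 level of the 9 gates with at least 20 cells per library. It stood at 6762 CPM in the control library and 4984 in the antibody library, a log2 ratio of -0.44 (-0.54 to -0.33). Ifitm2 stood at 3119 and 1951, a log2 ratio of -0.68 (-0.83 to -0.52), and Ifitm6 at 379 and 210, a log2 ratio of -0.87 (-1.32 to -0.37). Ifitm1 went the other way, at 311 in the control library and 858 in the antibody library, a log2 ratio of 1.45 (1.01 to 1.95). At least 3 Ifitm1 UMIs were found in 6 of 54 control and 59 of 245 antibody monocytes. Thinned to 1000 UMIs per cell, Ifitm1 stood at 407 and 763 CPM.

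In neutrophil-gated cells, which had the highest Ifitm1 and Ifitm2 levels, Ifitm2 stood at 6358 CPM in the control library and 3903 in the antibody library, a log2 ratio of -0.70 (-0.91 to -0.50). Ifitm1 stood at 1525 and 1435, a log2 ratio of -0.09 (-0.46 to 0.29), and Ifitm3 at 2708 and 2643, a log2 ratio of -0.04 (-0.31 to 0.24), so neither differed beyond counting error. Ifitm6 had 20 and 13 UMIs, a log2 ratio of -1.07 (-2.22 to -0.01). These cells were shallow, with a median of 670 and 781 UMIs, and 8 control and 20 antibody cells reached 1000 UMIs. In those deeper cells the log2 ratio was -0.09 for Ifitm2 and 1.57 for Ifitm1. Without the marker density minimum the neutrophil ratio was -0.15 for Ifitm2, 0.55 for Ifitm1 and 0.04 for Ifitm6, so the neutrophil values depend on which cells are taken.

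**Figure D3:**
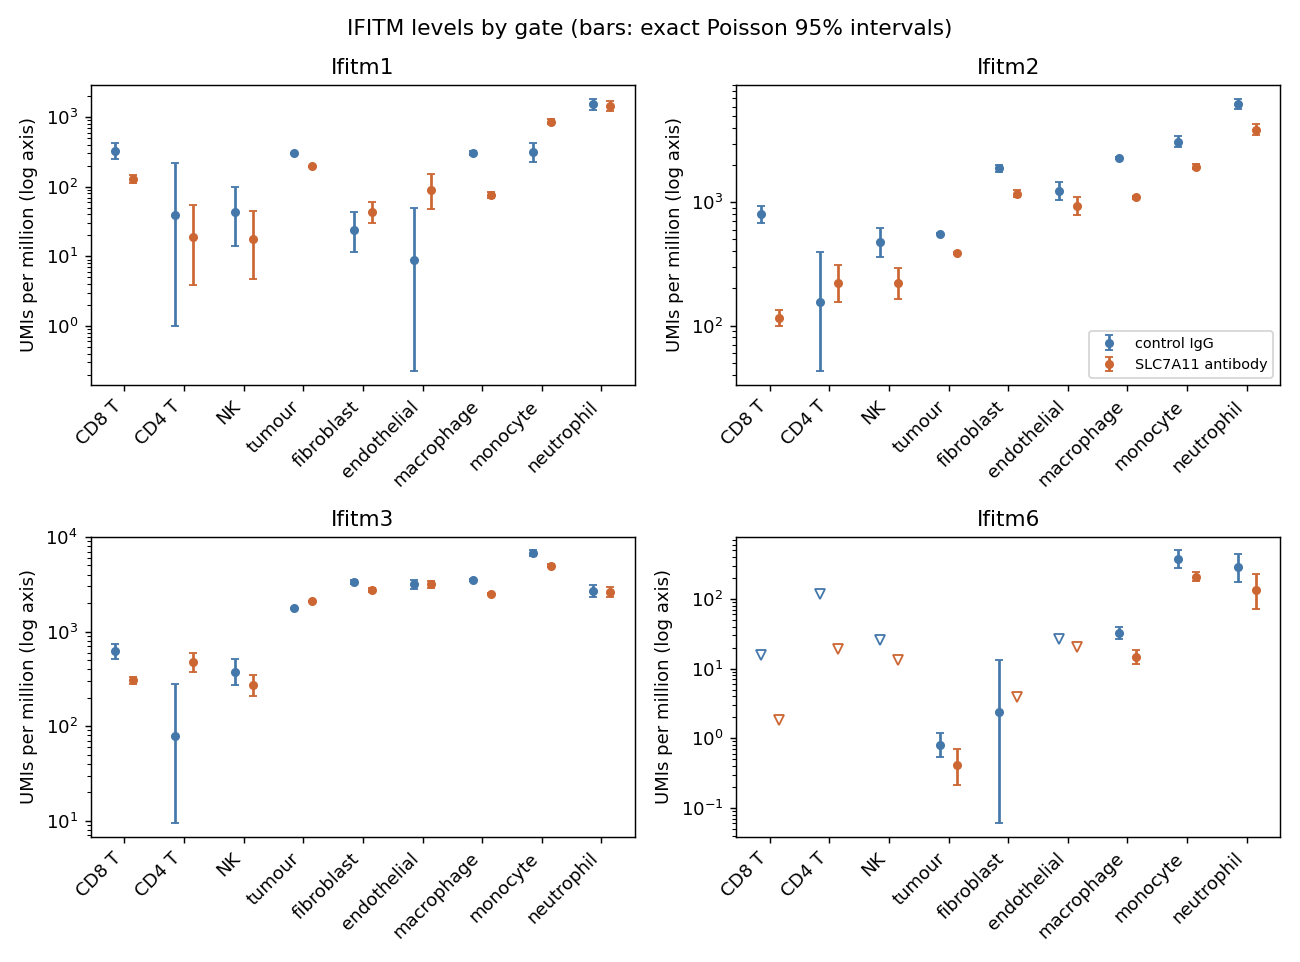
Level of each member (CPM, log axis) by gate and library, with exact Poisson 95% intervals; open triangles mark the level of 3 counts where no UMI was found. Ifitm1 and Ifitm2 are highest in neutrophil-gated cells, at 1525 and 6358 in the control, Ifitm3 is highest in monocytes, at 6762, and Ifitm6 is seen mainly in monocytes, neutrophils and macrophages.

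The order of the gates differed by member. For Ifitm2 in the control it ran from neutrophils through monocytes (3119 CPM), macrophages (2291), fibroblasts (1888), endothelial cells (1247) and CD8 T cells (798) to tumour cells (559), NK cells (480) and CD4 T cells (156). The intervals of tumour and NK cells overlapped, as did those of NK and CD4 T cells. In the antibody library CD8 T cells came last of the 9, at 116, below NK and CD4 T cells, both at 221. For Ifitm3 the control order was monocytes, macrophages, fibroblasts, endothelial cells, neutrophils, tumour cells, CD8 T cells, NK cells and CD4 T cells, and the intervals of each neighbouring pair from macrophages to neutrophils overlapped. For Ifitm1 CD8 T cells, monocytes, macrophages and tumour cells of the control lay between 302 and 331 CPM with overlapping intervals. The place of CD8 T cells there rests largely on 1 cell, which held 37 of the 63 UMIs of that gate. For Ifitm6 monocytes and neutrophils overlapped, and both lay above macrophages.

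Gates with fewer than 20 cells in a library are given as levels only. In plasmacytoid dendritic cells of the antibody library (69 cells) Ifitm3 stood at 186 and Ifitm2 at 81.5 CPM. That Ifitm3 level was 8.94% of the tumour-gate level, where the single gauge genes ran from 0% (Krt8 and Krt18) to 37.9% (Col3a1). In type 1 conventional dendritic cells (12 and 27 cells) Ifitm3 stood at 2405 and 936, and Ifitm2 at 1739 and 1181. The 19 mast-gated antibody cells had Ifitm1 at 1030 CPM. B-gated cells (10 control and 11 antibody cells) had 0 Ifitm1 UMIs in both libraries. With so few cells, this allows up to 340 CPM in the control library and 220 in the antibody library at 3 counts.

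**Figure D4:**
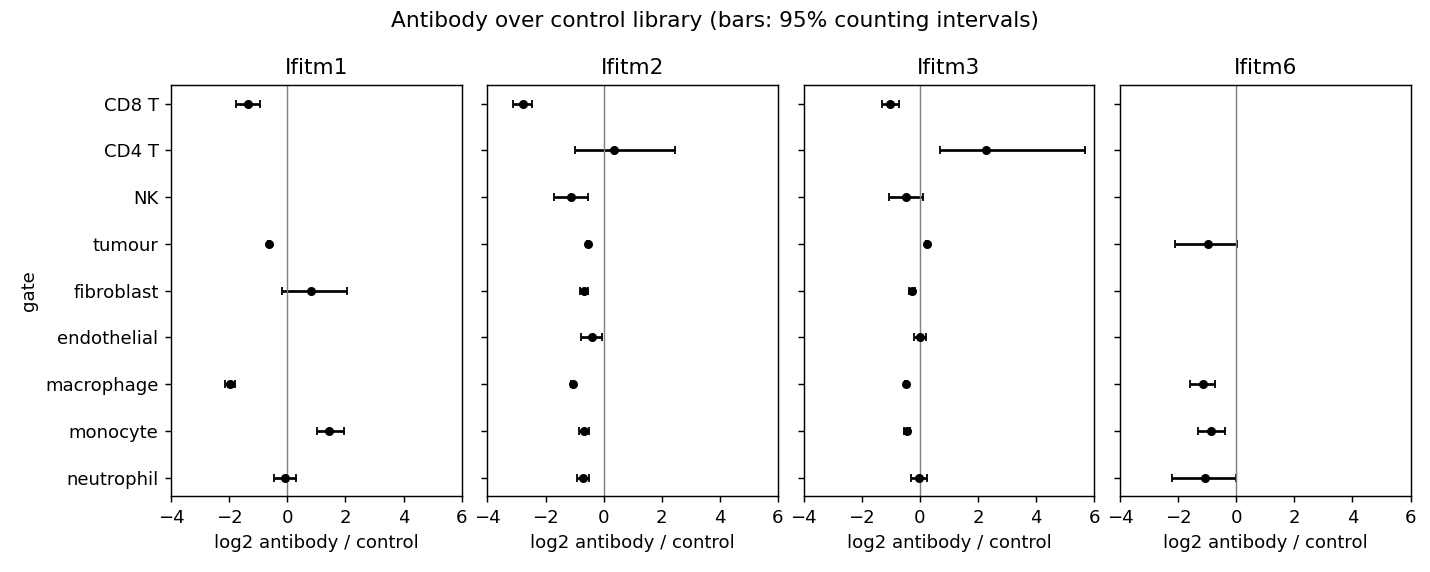
Log2 ratio of the antibody over the control library (x axis) for each member and gate with at least 20 UMIs, with exact conditional 95% counting intervals. For Ifitm2 the point furthest from 0 is the CD8 T gate at -2.79; for Ifitm1 the monocyte gate lies at 1.45 and the macrophage gate at -1.98; for Ifitm3 the tumour gate lies at 0.24.

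The median gene with at least 20 UMIs had a log2 ratio of -0.12 in the CD8 T gate, -0.18 in the tumour gate, -0.17 in the macrophage gate, -0.11 in the monocyte gate and -0.01 in the neutrophil gate. Relative to that median, Ifitm2 stood at -2.67 in CD8 T cells, -0.36 in tumour cells, -0.89 in macrophages, -0.56 in monocytes and -0.69 in neutrophils. Ifitm3 stood at -0.91, 0.42, -0.32, -0.33 and -0.03 in the same order.

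Other type I interferon targets gave the setting of these values, from a list of 36 genes without the IFITM genes. In the CD8 T gate 8 of the 30 measured list genes stood at least 2-fold lower in the antibody library and 0 at least 2-fold higher, against 8.78% lower and 12.3% higher of all 7691 genes measured. The list median was -0.76, against -0.12 over all genes. The 8 were Ifit1, Ifit3, Isg20, Usp18, Rsad2, Irf7, Ddx58 and Rtp4. Usp18, a brake on type I interferon signalling, stood at 152 and 46.1 CPM, a log2 ratio of -1.74 (-2.36 to -1.05), and Irf7, which amplifies interferon production, at 158 and 70.1, a log2 ratio of -1.19 (-1.76 to -0.54). Without the minimum density of T cell markers in the gate, 0 of the list genes stood 2-fold lower, and with a minimum of 100 UMIs per gene 4 did.

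In the tumour gate 13 of 35 list genes stood at least 2-fold higher and 0 lower, against 10.5% higher and 4.21% lower of all 15129 genes. The median was 0.82. Zbp1, a sensor of Z-form nucleic acids, stood at 49.8 and 204 CPM, a log2 ratio of 2.03 (1.95 to 2.11). Ifitm1 and Ifitm2 lay below 0 where 34 of the 35 list genes lay above 0. The exception in the list was Ifi27, at -0.21.

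In the macrophage gate 1 of 36 list genes stood at least 2-fold higher and 3 lower, against 8.61% higher and 5.1% lower of all genes, with a median of -0.28. The lower ones were Ifit1bl1, Ifit3b and Isg20, with Isg20 at -1.68. In the monocyte gate 3 of 35 stood higher and 2 lower, against 14.2% and 9.61%. In the neutrophil gate 4 of 21 stood higher and 1 lower, against 13.2% and 6.34%.

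Genes known best as interferon gamma targets were counted in the same way. Of a list of 19, 17 stood at least 2-fold higher in the antibody library in the tumour gate, 16 in the macrophage gate and 17 in the monocyte gate, 11 of 12 measured in the neutrophil gate and 5 of 18 in the CD8 T gate, with 0 lower in each. Of all genes measured, 10.5%, 8.61%, 14.2%, 13.2% and 12.3% stood that much higher in the same order of gates. The medians were 2.55, 1.58, 2.37, 1.99 and 0.58. In macrophages Cxcl9 stood at 68.3 and 1632 CPM, a log2 ratio of 4.58, and H2-K1, a class I antigen-presenting molecule, at 1295 and 3697, a log2 ratio of 1.51. All 4 IFITM genes lay below 0 in the same cells.

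Interferon receptor subunits and their kinases were counted as 7 genes. In the CD8 T gate 0 of 6 measured stood 2-fold higher or lower, against 12.3% higher and 8.78% lower of all genes. In the monocyte gate 3 of 6 stood higher and 1 lower, against 14.2% and 9.61% of all genes. In the macrophage gate 2 of 7 stood higher and 0 lower, against 8.61% and 5.1%. In the neutrophil gate 1 of 2 stood higher and 0 lower, against 13.2% and 6.34%. Ifnar2, a subunit of the type I receptor, stood at 5.12 and 23.8 CPM in the tumour gate. Ifngr2, a subunit of the type II receptor, stood at 9.68 and 34.5 there. They were the 2 of 7 that stood at least 2-fold higher in the tumour gate, against 10.5% of all genes. Of 6 enzymes and partners known to act on IFITM proteins, 0 stood 2-fold higher or lower in the CD8 T, tumour or macrophage gate. Of all genes measured in those gates, 12.3%, 10.5% and 8.61% stood higher and 8.78%, 4.21% and 5.1% lower. In the monocyte gate 4 were measured, with 1 higher and 1 lower, against 14.2% higher and 9.61% lower of all genes. Zmpste24 had 1 control and 26 antibody UMIs there, a log2 ratio of 1.45 (-0.59 to 7.37). Zdhhc20 had 11 and 34, a log2 ratio of -1.10 (-2.08 to 0.07), and both intervals included 0. Among the 6 are Zdhhc20, a palmitoyltransferase, at 71.7 and 52.3 CPM in the tumour gate, and Nedd4, a ubiquitin ligase, at 255 and 166.

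The remaining family members were hardly found. Over all barcodes Ifitm5, a bone-associated member, had 49 and 39 UMIs, Ifitm7 had 1 and 0, and Ifitm10 had 50 and 170. In the CD8 T gate Ifitm10 had 5 control and 46 antibody UMIs, or 26.3 and 28.3 CPM. Over all barcodes, Ifitm1 stood at 290 and 227 CPM, Ifitm2 at 712 and 551, Ifitm3 at 1840 and 2303 and Ifitm6 at 3.02 and 4.57. The whole-library value of Ifitm6 was higher in the antibody library, whereas it was lower in the monocyte, macrophage and neutrophil gates, of which the monocyte gate held 54 and 245 cells.

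Ifitm3 was compared across cells with few and many type I list UMIs, each cell thinned to 1000 UMIs. In the tumour gate of the control it stood at 1135 CPM in 459 cells with 0 list UMIs, 1328 in 1029 cells with 1 to 2 and 2496 in 964 cells with at least 3. In the antibody library it stood at 1282, 1580 and 2087 over 71, 352 and 971 cells. Ifitm3 was thus higher in cells with more list UMIs in both libraries. The share of tumour-gated cells with at least 3 list UMIs was 39.3% in the control library and 69.7% in the antibody library, and within those cells Ifitm3 was lower in the antibody library.

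Ifitm2 in the same tumour cells stood at 519, 552 and 646 CPM in the control and at 254, 372 and 427 in the antibody library, so the antibody value was lower in each group of cells. Ifitm1 stood at 233, 284 and 385 in the control and at 113, 159 and 187 in the antibody library. In the macrophage gate Ifitm3 stood at 2278, 2626 and 3949 in the control and at 2000, 2353 and 2686 in the antibody library, while Ifitm2 was nearly level in the control, at 2519, 2447 and 2499. In CD8 T cells with at least 3 list UMIs Ifitm2 stood at 745 in 47 control cells and 118 in 263 antibody cells.

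**Figure D5:**
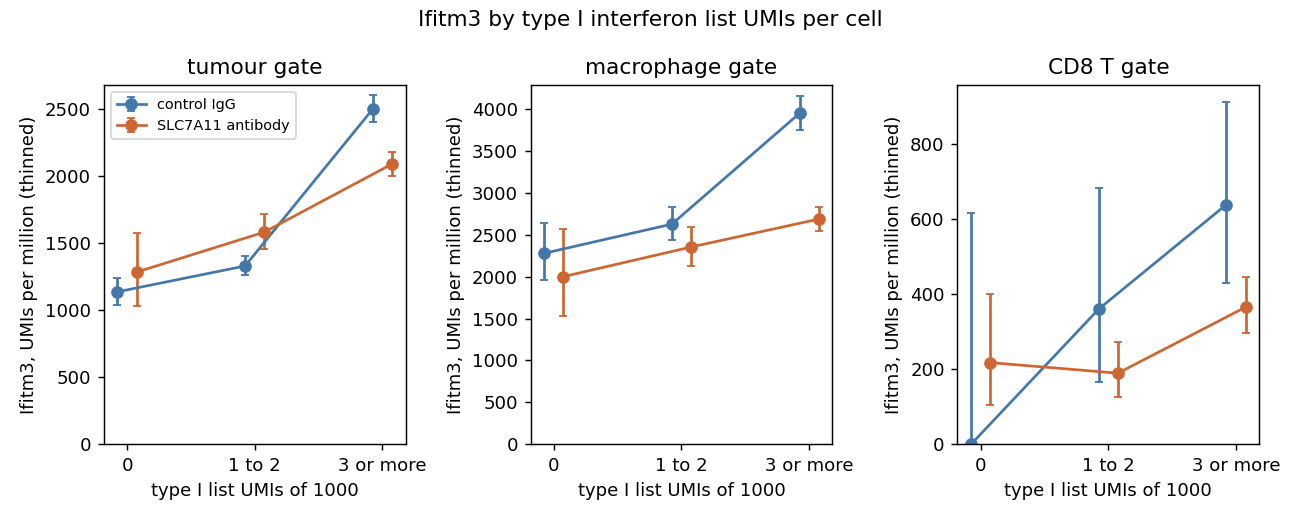
Ifitm3 level (CPM, cells thinned to 1000 UMIs, axis from 0) in tumour-, macrophage- and CD8 T-gated cells with 0, 1 to 2 or at least 3 type I list UMIs, with exact Poisson 95% intervals. In the tumour gate the level is highest in cells with at least 3 list UMIs, 2496 in the control library and 2087 in the antibody library; the control CD8 T group with 0 list UMIs holds 6 cells.

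Genes with the profile most like each member were sought over 14 profiles, the 7 gates with at least 30 cells in each library. Profiles of a library share depth and free RNA, so the correlations are descriptions. For Ifitm1 the 5 closest of 10691 genes were Ifit1 (r = 0.88), Cflar, Slc35a5, Dusp16 and Rab7. For Ifitm2 they were Gabarap (r = 0.95), Klf7, Qsox1, Mtus1 and Lamp2. For Ifitm3 they were Zfp516 (r = 0.96), Arhgap24, Cstb, Ltbr and App. For Ifitm6 they were Lilra6 (r = 0.98), Rnase6, Sirpb1b, Nfam1 and Skap2. Between members, r was 0.80 for Ifitm2 and Ifitm3 and 0.44 for Ifitm1 and Ifitm3.

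Near-identical sequence limits how well reads can be assigned. Of the stretches of 50 bases in the last 500 bases of Ifitm2 transcripts, 41.9% also occurred in transcripts of other genes, among them Ifitm3, the overlapping gene model Gm45717 and several predicted genes. The shares were 14% for Ifitm3, 11.8% for Ifitm1 and 0% for Ifitm6. Gm45717, which overlaps Ifitm2 on the same strand, had 22 and 39 UMIs over all barcodes, against 91860 and 79134 for Ifitm2, and 0 in the CD8 T gate of either library. Reads lost to such ambiguity cannot be counted from the tables, so levels are compared between gates and libraries and not between genes.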

How the data were processed

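Tumour tissue was dissociated with enzymes, and per the labels' protocols the libraries came from the 10x Genomics 3′ chemistry. The deposited tables hold UMI counts for each gene and cell barcode. The submitters' processing notes name Cell Ranger 7.2.0, Seurat and build mm10. Every barcode had at least 500 UMIs, and 28526 gene identifiers were in both tables. A gene listed in 1 table only counted as 0 in the other.

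The cell filter asked for 200 genes, 500 UMIs and a mitochondrial share under 20%. Scrublet (scanpy 1.11.5) scored doublets, and the top 0.8% per 1000 cells were removed, 1537 control and 1164 antibody cells. Gates required marker UMI minimums and a minimum number of own-marker UMIs per 10000 (50 for T cells, 100 for macrophages and monocytes, 200 for neutrophils), passed for 1 host class only. These density minimums were set after seeing the data, from the gauge of tumour and stromal transcripts and Y-linked levels. Free RNA was not removed.

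Counts were summed per gate and library, and ratios used the gate total and a prior count of 0.5. Intervals are exact Poisson for levels, exact conditional binomial for ratios and Clopper-Pearson for shares, all at 95%. UMIs of 1 library do not measure variation between mice, so no test was made. A list gene was measured with at least 20 counts in the gate over both libraries. The ratio script was tested on simulated Poisson sums per gate. These sums held no clustering of UMIs in single cells, so that part of the spread was not covered. Python 3.11.15, numpy 2.4.6, scipy 1.17.1 and pandas 2.3.3 were used. Members, lists and gates were chosen with earlier results of these data known. Named genes were the 4 members, examples from the lists, and the 5 genes most like each member by Pearson r of log2(CPM + 1), among genes with at least 200 counts. Granzyme, Cxcl9 and cycling splits were chosen after seeing the data. Values of some single list genes are not reported here.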

Additional observations from a re-analysis of the deposited data

Results flagged for a closer look

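Ifitm1 moved in opposite directions between gates: its log2 ratio was 1.45 in the monocyte gate and below 0, with intervals that excluded 0, in the CD8 T, tumour and macrophage gates. In the CD8 T gate 1 control cell held 37 of its UMIs, and without the top cell of each library the ratio was -0.47 (-1.05 to 0.21), an interval that includes 0. Ifitm3 did so as well: its log2 ratio was 0.24 in the tumour gate and 2.29 in the CD4 T gate, and it was below 0, with intervals that excluded 0, in the CD8 T, macrophage, monocyte and fibroblast gates. The CD4 T value rests on 2 control UMIs. With 1 library per group, these differences between gates were not tested.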

How the results depend on the processing

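No paired analysis was possible because each group has 1 library. Leaving out a replicate was not possible for the same reason. Of 139 log2 ratios of 15 member and gate pairs under other settings, 133 kept their sign and 103 stayed within the counting interval of the main value. These pairs cover the CD8 T, tumour, macrophage and neutrophil gates only. Ratios of the other gates, among them Ifitm1 in monocytes (1.45) and Ifitm3 in CD4 T cells (2.29), were not part of this count. The Ifitm2 ratio in the CD8 T gate ran from -2.80 to -2.06, and that of Ifitm3 there from -1.03 to -0.78. The cause of each move below was not tested.

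With doubled marker minimums, the tumour-gate ratios were -0.68 (Ifitm1) and 0.22 (Ifitm3), and 5 macrophage and 2 neutrophil type I list genes stood 2-fold lower. With a stricter cell filter the neutrophil ratios were 0.29 (Ifitm1), -0.45 (Ifitm3) and -2.97 (Ifitm6), and 0 neutrophil list genes stood higher. Without marker density minimums, chosen after seeing the data, the ratios were -2.06 for Ifitm2 in CD8 T cells, -1.04, -1.16 and -0.40 for Ifitm1, Ifitm2 and Ifitm3 in macrophages, and 0.55, -0.15 and 0.043 for Ifitm1, Ifitm2 and Ifitm6 in neutrophils, the Ifitm6 value being reversed. There, 0 CD8 T and 0 neutrophil list genes stood lower, and CD8 T cells ranked 3 (control) and 6 (antibody) of 9 gates for Ifitm1 and 9 (antibody) for Ifitm3. With at least 100 counts, 4 CD8 T list genes stood lower and 0 neutrophil list genes either way; with no minimum, 7 neutrophil list genes stood higher and 4 lower. Median-of-ratios scaling gave -0.45, -0.35 and 0.42 for Ifitm1, Ifitm2 and Ifitm3 in the tumour gate and -0.90 and -0.32 for Ifitm2 and Ifitm3 in macrophages. Totals without mitochondrial, ribosomal protein and haemoglobin genes gave 0.21 for Ifitm3 in the tumour gate.

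Thinned to 1000 UMIs, the ratios were -0.42 for Ifitm1 in CD8 T cells, -0.83 and 0.13 for Ifitm1 and Ifitm3 in tumour cells, -1.72, -0.35 and -0.60 for Ifitm1, Ifitm3 and Ifitm6 in macrophages, and 1.57 and -0.094 for Ifitm1 and Ifitm2 in neutrophils, of which 8 and 20 cells were deep enough. Thinned shares of CD8 T cells with a UMI were 5.69% (Ifitm1), 7.0% (Ifitm2) and 23.9% (Ifitm3) in the antibody and 32.1% (Ifitm3) in the control library. Means over cells gave -0.82 for Ifitm1 in CD8 T cells, -0.72, -0.58 and 0.18 for Ifitm1, Ifitm2 and Ifitm3 in tumour cells and -0.38 for Ifitm3 in macrophages. Added after seeing the data, a tumour gate without a keratin minimum gave -0.38, -0.35, 0.39 and 0.044 for Ifitm1, Ifitm2, Ifitm3 and Ifitm6, and leaving out the cell with most UMIs of the gene gave -0.47 for Ifitm1 in CD8 T cells. Counts limit the precision of Ifitm6, which had 33 UMIs in the neutrophil gate over both libraries.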
